A study of Arabidopsis thaliana with 20 samples.

Results

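The 7 genes described here encode the XRN 5′-to-3′ exonucleases and the core of the mRNA decapping complex of Arabidopsis thaliana. They are XRN2 (AT5G42540), XRN3 (AT1G75660), XRN4 (AT1G54490), DCP2 (AT5G13570), DCP1 (AT1G08370), VCS (AT3G13300) and DCP5 (AT1G26110). They were taken by gene identifier out of 28775 genes in the gene count tables and 27162 transcript models in the small RNA tables. All 7 were present in each kind of table and passed the filter on low counts in all 10 comparisons.

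Most mRNAs carry a methylguanosine cap at the 5′ end, and decay in the 5′-to-3′ direction starts when that cap is removed. DCP2 is the hydrolase that cuts the cap, DCP1 is its activator, VARICOSE (VCS) is the scaffold that holds both together, and DCP5 is a partner that also restrains translation. The 5′ monophosphate left behind is the substrate of the XRN enzymes. In Arabidopsis XRN4 works in the cytoplasm on decapped and cleaved mRNA, while XRN2 and XRN3 are nuclear and act on ribosomal RNA precursors, excised RNA fragments and RNA downstream of transcript ends. Some RNAs carry NAD in place of the canonical cap, and the DXO/Rai1 family, to which DXO1 belongs, can remove it. RDR6 copies RNA from RNA, and can use uncapped or cleaved transcripts as templates for small interfering RNAs, a route on which XRN4 and decapping are known to compete.

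Unopened flower buds were harvested from plants of about 4 weeks grown in 16 h light and 8 h dark, and 20 libraries were sequenced, a pair for each of 10 groups. Small RNA came from dxo1 rdr6, dxo1 and Col-0, the wild type. NAD RNA, total RNA and mRNA came from dxo1 and Col-0, and GMUCT from dxo1. The labels name neither the alleles nor the plants behind each library, so every p-value below measures the spread between libraries, which may be technical. NAD RNA denotes libraries of captured NAD-capped RNA, mRNA denotes polyA RNA, and GMUCT reads 5′ ends of polyadenylated transcripts that are uncapped or cleaved. A capture without enzyme was not analysed here.

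Counts assigned to genes came to 1144896 to 3178702 per NAD RNA library, 2576448 to 8309456 per total RNA library, 10100250 to 16833010 per mRNA library, and 30883266 and 19769742 in the 2 GMUCT libraries. DXO1 itself was not low in every dxo1 library. The library labelled dxo1 replicate 1 held 611.8 CPM of DXO1 (counts scaled by library size, here with TMM factors) in total RNA and 500.8 in mRNA, while replicate 2 held 10.99 and 19.4; in GMUCT the values were 1688 and 20.4, and in small RNA 5040 and 17.2. Col-0 held 32.9 and 29.0 CPM in total RNA, 48.6 and 49.2 in mRNA, and 37.9 and 38.5 in small RNA. In NAD RNA DXO1 stood at 17.8 and 17.6 CPM in dxo1, against 13.96 and 25.2 in Col-0, so replicate 1 was not high there and the genotypes overlapped. The dxo1 rdr6 small RNA libraries held 3.80 and 7.12. The 5 floral organ markers (AP1, AP3, PI, AG and SEP3) were detected in every group of gene count libraries. The 5 late pollen markers (VGD1, ANX1, ANX2, AGP6 and AGP11) were low in dxo1: their summed level was 222.5 and 98.8 CPM of assigned counts in dxo1 mRNA, against 602.4 and 580.9 in Col-0 mRNA.

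**Figure D1:**
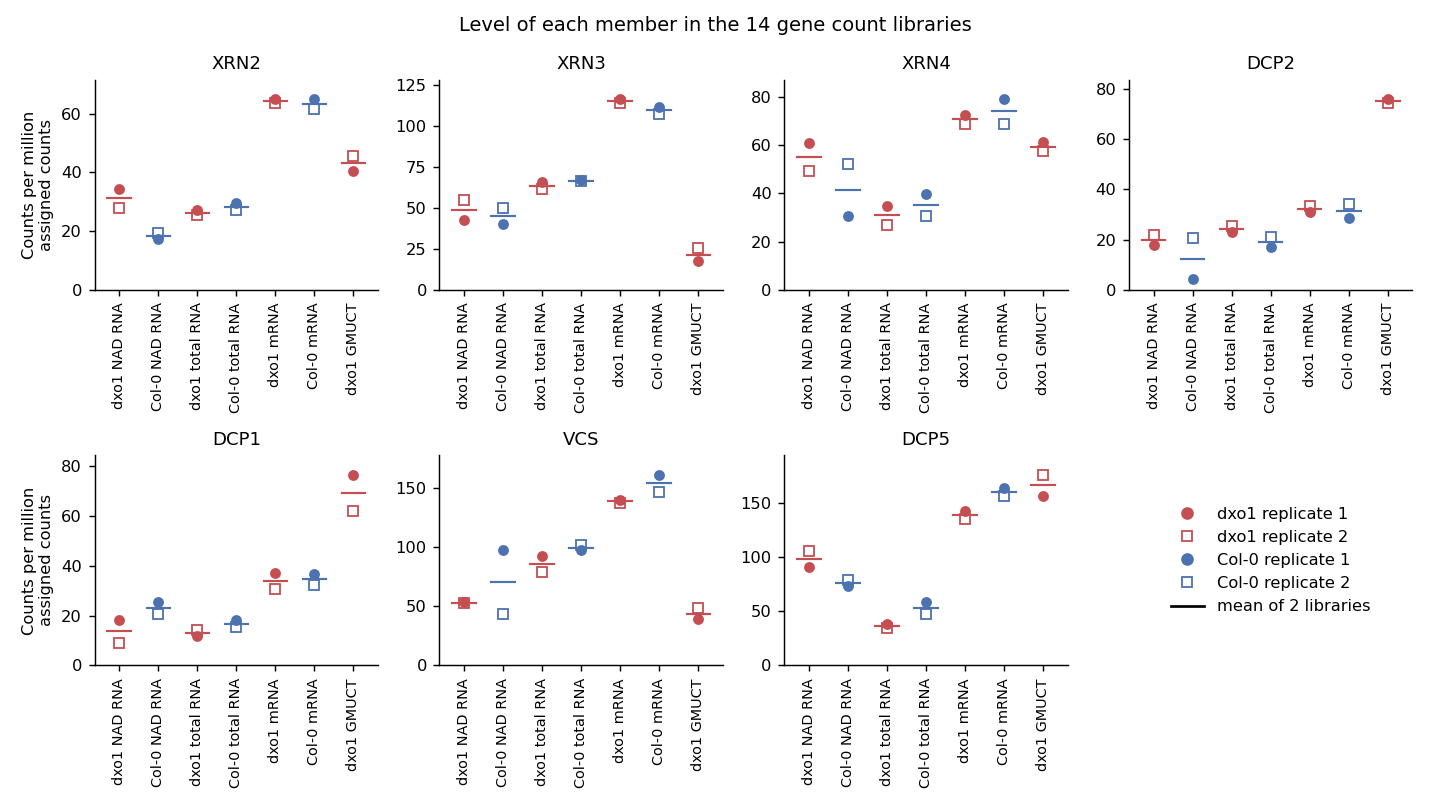
Level of each of the 7 genes, as CPM of assigned counts (y axes, each starting at 0), in the libraries of the 7 gene-count groups (x axes). Red marks dxo1 and blue Col-0, a filled circle replicate 1, an open square replicate 2, and a bar the mean of the 2 libraries. DCP2 and DCP1 stand highest in GMUCT, at means of 75.2 and 69.3, while XRN3 and VCS stand lowest there, at 21.5 and 43.8.

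The level of each gene was first followed through the 7 groups of gene count libraries, as CPM of assigned counts without TMM scaling, so that a value is a share of the library. Sequencing 50 nt reads gives more counts to longer transcripts, so levels are compared here within a gene and not between genes. In mRNA, XRN2 averaged 64.5 ± 0.872 in dxo1 and 63.4 ± 2.48 in Col-0 (SD, n = 2 libraries), its 2 highest groups, and its libraries overlapped between them. XRN3 was also highest in mRNA, at 115.3 ± 1.95 in dxo1 and 109.6 ± 3.18 in Col-0, and lowest in GMUCT, at 21.5 ± 5.28.

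XRN4 had the flattest profile of the 7. Its highest group, Col-0 mRNA, exceeded its lowest, dxo1 total RNA, 2.395-fold, and the libraries overlapped for 5 of the 6 pairs of neighbours in the order of its levels. The only gap was between dxo1 mRNA, at 68.7 and 72.5, and dxo1 GMUCT, at 57.3 and 61.3. For the other genes the highest group exceeded the lowest 3.50-fold (XRN2) to 6.06-fold (DCP2).

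The decapping genes divided by the group in which they stood highest. DCP2 averaged 75.2 ± 1.31 in GMUCT, above all other groups, where means lay between 12.4 and 32.2. DCP1 likewise averaged 69.3 ± 10.4 in GMUCT and 12.9 to 34.7 elsewhere. VCS was highest in mRNA, at 138.9 ± 1.94 in dxo1 and 154.2 ± 10.4 in Col-0, and lowest in GMUCT, at 43.8 ± 6.86. DCP5 held 166.2 ± 13.7 in GMUCT, where its libraries overlapped those of Col-0 mRNA, and was lowest in dxo1 total RNA, at 36.3 ± 3.16.

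For the level of the 5′ decay enzymes in the 2 genotypes, mRNA labelled dxo1 was set against Col-0 mRNA. Since replicate 1 of dxo1 mRNA held 10.2 times the Col-0 mean of DXO1, the comparison is one of labels and not of DXO1 levels. None of the 7 genes passed an adjusted p of 0.05 (edgeR, quasi-likelihood, Benjamini-Hochberg over all genes), whereas 30.1% of the 19730 genes tested did (5932). At an unadjusted p under 0.05 the test gave 1 of the 7, DCP5, and DESeq2 called 0. The fitted ratios of dxo1 to Col-0 lay between 0.859 for DCP5 and 1.04 for XRN3.

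The nuclear exonucleases were close in the 2 genotypes. XRN2 had 64.1 and 64.5 CPM in dxo1 mRNA, against 65.3 and 62.1 in Col-0 mRNA, and the groups overlapped. XRN3 had 114.9 and 115.0 CPM in dxo1 mRNA, against 112.2 and 108.1 in Col-0 mRNA, both dxo1 libraries above both of Col-0. The cytoplasmic exonuclease XRN4 had 71.4 and 69.4 CPM in dxo1 mRNA, against 79.4 and 69.2 in Col-0 mRNA, overlapping.

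Among the decapping genes, DCP2 had 30.5 and 33.8 CPM in dxo1 mRNA, against 28.7 and 34.5 in Col-0 mRNA, and DCP1 had 36.7 and 31.2 in dxo1 mRNA, against 37.0 and 32.7 in Col-0 mRNA. Both overlapped. VCS had 138.1 and 138.8 CPM in dxo1 mRNA, against 162.1 and 148.0 in Col-0 mRNA, with both dxo1 libraries lower.

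DCP5 had the lowest p of the 7. It had 140.2 and 135.9 CPM in dxo1 mRNA, against 163.9 and 157.4 in Col-0 mRNA, so both dxo1 libraries lay below both of Col-0. Its log2 fold change of -0.22 ± 0.083 (SE) gave an adjusted p of 0.0897 in edgeR's quasi-likelihood test. Without dxo1 replicate 1, the library labelled dxo1 with high DXO1, the log2 fold change was -0.24 with an adjusted p of 0.00847, and without replicate 2 it was -0.20 with an adjusted p of 0.0346. Without Col-0 replicate 1 the adjusted p was 0.452, and without Col-0 replicate 2 it was 0.3501. In each of these the lone library is assumed to vary like those of the other genotype, and with all 4 libraries DCP5 did not pass.

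Of 18 listed partners of the complex, 4 rose and 3 fell in dxo1 mRNA, beside the 30.1% of all genes called (3075 higher and 2857 lower), and the median log2 fold change of the list was 0.15, against 0.01 over all genes. All 4 that rose encode subunits of the LSM ring, which binds the 3′ end of shortened mRNA and activates decapping: LSM6A, LSM3A, LSM2 and LSM7. The 3 that fell were the 3 PAT1 genes, whose proteins link that ring to the decapping enzyme: PAT1, PAT1H1 and PAT1H2. Of these, LSM2, LSM7, PAT1 and PAT1H1 are named after their values were seen. Ring genes make up most of the list, and its other ring genes were not called in dxo1 mRNA.

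LSM6A averaged 43.4 ± 5.49 CPM in dxo1 mRNA and 25.99 ± 1.72 in Col-0 mRNA (SD, n = 2 each), a log2 fold change of 0.74 ± 0.121 (SE) with an adjusted p of 0.00606 in edgeR. LSM3A averaged 70.7 ± 14.7 CPM in dxo1 and 41.7 ± 0.703 in Col-0 (adjusted p of 0.00922 in edgeR). PAT1H2 averaged 35.3 ± 0.467 CPM in dxo1 and 48.4 ± 1.69 in Col-0, a log2 fold change of -0.45 ± 0.0892 with an adjusted p of 0.0110 in edgeR. Of 10 genes of cytoplasmic 3′ decay, the opposite route, 1 rose and 0 fell, beside the 30.1% of all genes called. The 1 that rose was SKI8 of the Ski complex, which feeds RNA to the exosome. It stood at 46.1 ± 1.45 CPM in dxo1 and 32.1 ± 0.241 in Col-0.

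SAL1, the phosphatase that removes the nucleotide inhibitor of XRN enzymes, averaged 71.6 ± 0.715 CPM in dxo1 mRNA and 63.7 ± 0.823 in Col-0 mRNA, with an adjusted p of 0.151 in edgeR. In the same comparison all 5 late pollen markers fell, with a median log2 fold change of -1.89, and 2 of 5 tapetum markers fell (A9 and ATA7). The part of these cell types in the values of the 7 genes was not tested. In bulk samples, fewer cells of a type and less RNA per cell cannot be told apart.

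**Figure D2:**
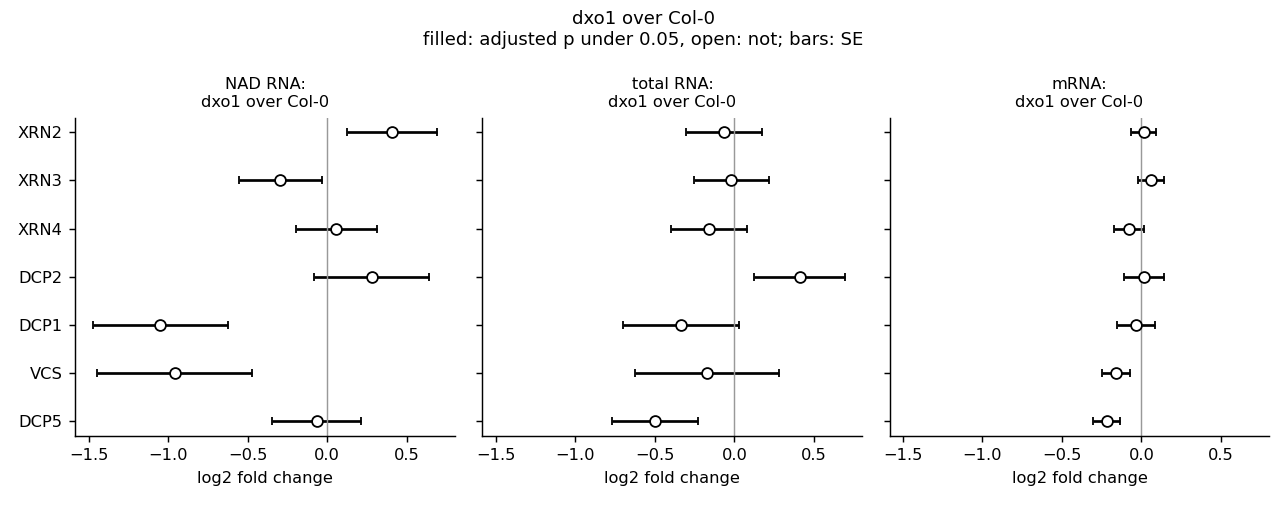
Log2 fold change of dxo1 over Col-0 (x axes) for the 7 genes (y axis) in NAD RNA, total RNA and mRNA, with approximate SE as bars. All points are open, so none passed at an adjusted p of 0.05, and the mRNA values lie between -0.22 and 0.06.

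Total RNA gave no call among the 7 either, and only 0.988% of all genes passed there (175 of 17718). Unadjusted p-values under 0.05 and calls by DESeq2 both numbered 0 among the 7. DCP5 was again lower in both dxo1 libraries, at 46.2 and 40.4 CPM in dxo1 total RNA, against 67.1 and 54.4 in Col-0 total RNA, with no overlap. Its log2 fold change was -0.50 ± 0.270 (SE) and its adjusted p 0.450 in edgeR's test, or 0.0447 when the 4 total RNA libraries were fitted alone. DCP2 ran the other way, at 27.5 and 30.1 CPM in dxo1 total RNA, against 19.9 and 24.1 in Col-0 total RNA, with no overlap and an adjusted p of 0.586 in edgeR.

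NAD RNA of dxo1 was then set against NAD RNA of Col-0. Again 0 of the 7 passed in edgeR, with 0.756% of all genes called (134 of 17718), 1 of the 7 at an unadjusted p under 0.05, and 0 called by DESeq2. The lowest p belonged to DCP1, with 13.6 and 6.77 CPM in dxo1 NAD RNA, against 33.7 and 15.3 in Col-0 NAD RNA, both dxo1 libraries below both of Col-0 although the replicates of each group stood far apart. Its log2 fold change was -1.05 ± 0.424 (SE), with an adjusted p of 0.232 in edgeR. Without Col-0 replicate 2 it was -1.62 (adjusted p of 0.0110) and without Col-0 replicate 1 it was -0.47 (adjusted p of 0.485), each with a lone Col-0 capture assumed to vary like the other groups.

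VCS was split between the Col-0 captures, which held 130.3 CPM in replicate 1 and 32.2 in replicate 2, while the dxo1 captures held 39.9 and 39.2. The dxo1 libraries thus lay between those of Col-0. The split was not particular to VCS: over all genes with enough counts, the Col-0 captures differed more than the replicates of any other group (chi-square per degree of freedom 33.7). Its adjusted p was 0.336 in edgeR, and VCS passed only when Col-0 replicate 2 was left out or no filter on low counts was used. Among partners and 3′ decay genes edgeR made 0 calls between the genotypes in NAD RNA or total RNA (3 partners in each and 1 and 0 of the 3′ decay genes had an unadjusted p under 0.05), while 3 of 5 late pollen markers fell in NAD RNA and 1 of 5 in total RNA; their part in the values of the 7 genes was not tested.

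The next question was whether the transcripts of these genes are over- or under-represented among NAD-capped RNA, for which NAD RNA and total RNA were compared within each genotype. In dxo1, XRN3, DCP2 and VCS were lower in NAD RNA and DCP5 was higher, 4 of 7 called, beside 36.5% of all genes (6471 of 17718, 50.3% of them higher). In Col-0, XRN2 and XRN3 were lower, 2 of 7 called, beside 24.2% of all genes (4287 of 17718, 55.7% higher). The median log2 fold change of the 7 was -0.53 in dxo1 and -0.58 in Col-0, against 0.04 and 0.06 over all genes. Only XRN3 was below the threshold in both genotypes, and its Col-0 call was lost with a replicate block (adjusted p of 0.0617 in edgeR) and in DESeq2 (0.0926).

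XRN3 had 31.9 and 40.6 CPM in dxo1 NAD RNA, against 78.6 and 73.2 in dxo1 total RNA. In Col-0 it had 53.5 and 37.1 CPM in NAD RNA, against 77.5 and 76.2 in total RNA. In both genotypes each NAD RNA library lay below each total RNA library. The log2 fold changes were -1.07 ± 0.243 (SE, adjusted p of 0.00726) in dxo1 and -0.80 ± 0.253 (adjusted p of 0.0428) in Col-0, in edgeR's quasi-likelihood test.

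XRN2 had 25.6 and 20.8 CPM in dxo1 NAD RNA, against 32.4 and 30.4 in dxo1 total RNA, and 23.3 and 14.4 CPM in Col-0 NAD RNA, against 34.2 and 31.2 in Col-0 total RNA. The groups did not overlap in either genotype. Only the Col-0 difference passed, at a log2 fold change of -0.89 ± 0.279 (SE) and an adjusted p of 0.0408 in edgeR; the dxo1 one had an adjusted p of 0.195. XRN4 was near even in both, at 45.3 and 36.5 CPM in dxo1 NAD RNA against 41.8 and 31.8 in dxo1 total RNA, and at 40.7 and 38.8 in Col-0 NAD RNA against 45.9 and 35.2 in Col-0 total RNA. The groups overlapped in both genotypes on this scale.

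For these 2 genes the picture in dxo1 turned with the scaling. As CPM of assigned counts without TMM factors, XRN2 had 34.3 and 28.0 in dxo1 NAD RNA, against 27.1 and 25.6 in dxo1 total RNA, so each NAD RNA library was then higher. XRN4 had 60.7 and 49.3 in dxo1 NAD RNA, against 34.9 and 26.8 in dxo1 total RNA, also without overlap. In Col-0 XRN2 remained lower in NAD RNA without TMM factors, at 17.5 and 19.4, against 29.6 and 27.2 in total RNA.

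DCP2 had 13.4 and 16.2 CPM in dxo1 NAD RNA, against 27.5 and 30.1 in dxo1 total RNA, without overlap, and its log2 fold change was -0.98 ± 0.298 (SE, adjusted p of 0.0262 in edgeR). In Col-0 it had 5.81 and 15.3 CPM in NAD RNA, against 19.9 and 24.1 in total RNA, with an adjusted p of 0.0986, and these groups overlapped without TMM factors but not with them. The value of 5.81 CPM rests on 5 counts. DCP1 passed in neither genotype, at 13.6 and 6.77 CPM in dxo1 NAD RNA against 14.02 and 16.7 in dxo1 total RNA, and at 33.7 and 15.3 in Col-0 NAD RNA against 20.9 and 17.8 in Col-0 total RNA.

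VCS had 39.9 and 39.2 CPM in dxo1 NAD RNA, against 110.7 and 93.4 in dxo1 total RNA, the widest gap of the 7 in that genotype, with a log2 fold change of -1.36 ± 0.468 (SE, adjusted p of 0.0424 in edgeR). In Col-0 the split NAD RNA libraries, at 130.3 and 32.2 CPM, lay on either side of total RNA, at 112.6 and 117.2. The neighbouring gene VARICOSE-RELATED (VCR, AT3G13290), a near copy of VCS whose shared reads the counting may have dropped, behaved alike: it averaged 15.7 ± 0.700 CPM in dxo1 NAD RNA and 38.1 ± 0.213 in dxo1 total RNA, with an adjusted p of 0.0351 in edgeR. In Col-0 VCR averaged 28.7 ± 23.6 CPM in NAD RNA and 36.8 ± 4.02 in total RNA.

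DCP5 was the one gene of the 7 called higher in capture. It had 67.6 and 78.5 CPM in dxo1 NAD RNA, against 46.2 and 40.4 in dxo1 total RNA, a log2 fold change of 0.75 ± 0.270 (SE) with an adjusted p of 0.0499 in edgeR, or 0.0517 with a replicate block. Col-0 NAD RNA held 97.7 and 58.6 CPM of DCP5, against 67.1 and 54.4 in Col-0 total RNA, and overlapped. Without TMM factors the Col-0 groups did not overlap, at 73.4 and 78.6 CPM in NAD RNA, against 58.1 and 47.4 in total RNA. With mRNA in place of total RNA the direction in dxo1 turned, to a log2 fold change of -0.26 with an adjusted p of 0.430, so the higher value holds against total RNA alone.

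The calls in NAD RNA depended on scaling and on single libraries. With library totals in place of TMM factors the median over all genes moved to 0.72 in dxo1 and 0.37 in Col-0, the share of calls that were higher to 88.9% and 81.8%, and DCP5 in dxo1 was the only call left among the 7. Without the dxo1 replicate 1 libraries no gene of the 7 passed in either genotype, and the Col-0 calls also failed without either total RNA library or without Col-0 NAD RNA replicate 2. The dxo1 calls of DCP2, VCS and DCP5 failed without any 1 of the 4 dxo1 libraries, and that of XRN3 without NAD RNA replicate 1 or total RNA replicate 2.

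Whether the NAD RNA to total RNA ratio itself differed between dxo1 and Col-0 was tested as an interaction in the same fit. It passed for 0 of the 7 genes and 0% of all 17718 genes in edgeR, with 0 of the 7 and 1332 of all genes at an unadjusted p under 0.05, and DESeq2 called 0 of the 7 and 13 of all genes. DCP1 had the lowest adjusted p of the 7, 0.790, with a difference of -0.72 ± 0.557 (SE) in log2 ratio. The calls that passed in one genotype and not in the other, such as XRN2 in Col-0 and VCS in dxo1, are therefore not shown to differ between genotypes.

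**Figure D3:**
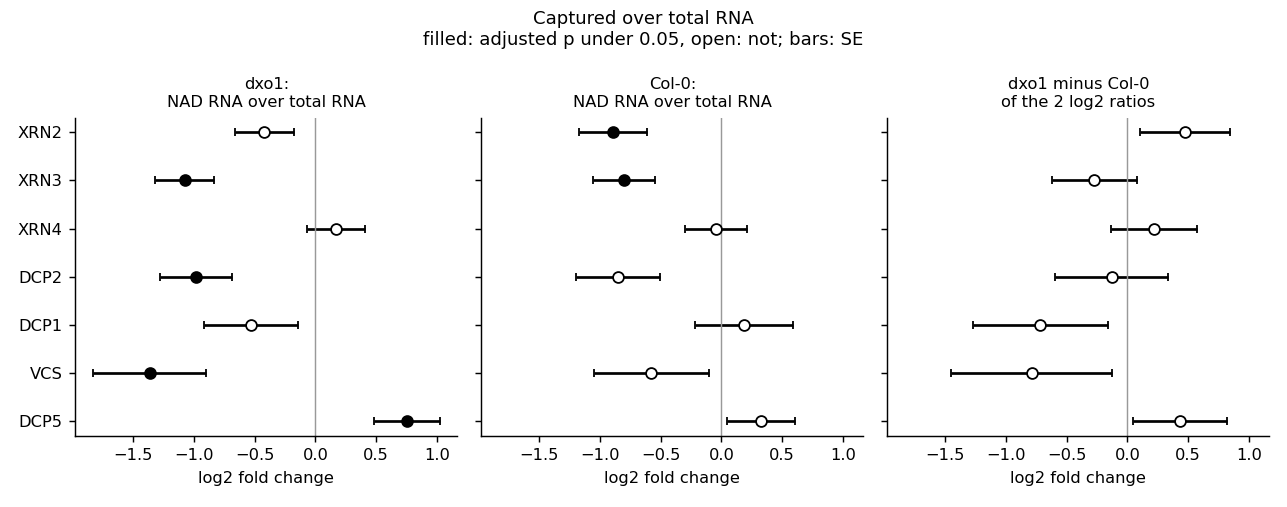
Log2 fold change of NAD RNA over total RNA (x axes) for the 7 genes (y axis) in dxo1 and in Col-0, and the difference between both ratios, with approximate SE as bars. Filled points passed at an adjusted p of 0.05: 4 in dxo1, 2 in Col-0 and 0 for the difference. XRN3 stands at -1.07 in dxo1 and -0.80 in Col-0.

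Among the partners, 2 of 18 were higher and 6 lower in dxo1 NAD RNA than in dxo1 total RNA, and 1 higher and 2 lower in Col-0, beside 36.5% and 24.2% of all genes called. LSM4, a subunit of both the cytoplasmic and the nuclear LSM ring, averaged 36.9 ± 12.6 CPM in dxo1 NAD RNA and 348.5 ± 134.7 in dxo1 total RNA, and 59.7 ± 20.8 in Col-0 NAD RNA and 386.4 ± 4.23 in Col-0 total RNA. It was lower in both, with adjusted p of 3.48e-04 in dxo1 and 0.00152 in Col-0 in edgeR. LSM5, another ring subunit, was higher in both, at 25.7 ± 2.50 CPM in dxo1 NAD RNA and 6.13 ± 0.819 in dxo1 total RNA (adjusted p of 7.34e-04), and at 23.6 ± 2.17 in Col-0 NAD RNA and 6.90 ± 2.21 in Col-0 total RNA (adjusted p of 0.00359).

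LSM2 was lower in dxo1 NAD RNA, at 18.0 ± 2.59 CPM there and 44.9 ± 1.34 in dxo1 total RNA. In Col-0 LSM7 was lower in NAD RNA, at 38.1 ± 6.19 CPM there and 73.9 ± 20.01 in total RNA. Of the 3′ decay genes, SKI2, SOV and NOT1 were lower in dxo1 NAD RNA (3 of 10), and in Col-0 CAF1A, a deadenylase, was higher (1 of 10). Over all genes 36.5% were called in dxo1 and 24.2% in Col-0. SKI2, the helicase of the Ski complex, averaged 12.0 ± 0.984 CPM in dxo1 NAD RNA and 28.8 ± 3.105 in dxo1 total RNA.

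The clearest separation of the 7 genes was in GMUCT, which was set against mRNA of dxo1 to ask how the uncapped and cleaved form of each transcript relates to its polyA RNA. DCP2, DCP1 and DCP5 were higher in GMUCT, XRN3, VCS and XRN2 were lower, and XRN4 did not pass. That is 6 of 7 called, beside 64.8% of all genes (13032 of 20117), so a call by itself is common here and the sizes are described instead. Counts in mRNA rise with transcript length, while GMUCT reads 5′ ends, so length may not cancel in a ratio. The part of length in the differences between genes was not tested. The fitted ratios of GMUCT to mRNA ran from 0.202 for XRN3 to 2.55 for DCP2, and their median log2 value was -0.12, against 0.002 over all genes.

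**Figure D4:**
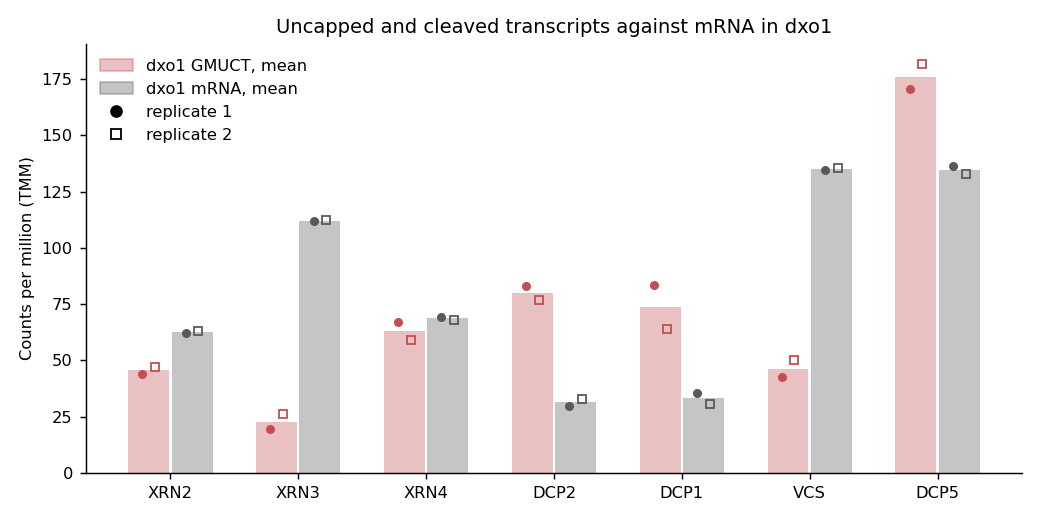
CPM (y axis, TMM-scaled, starting at 0) of the 7 genes (x axis) in dxo1 GMUCT (red) and dxo1 mRNA (grey). Bars are means of 2 libraries, filled circles replicate 1 and open squares replicate 2. DCP2 stands at 83.0 and 76.7 in GMUCT, against 29.6 and 33.0 in mRNA, and XRN3 at 19.4 and 26.05 in GMUCT, against 111.8 and 112.4 in mRNA.

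The 3 exonuclease genes all had negative log2 fold changes, of very different size. XRN3 had 19.4 and 26.05 CPM in dxo1 GMUCT, against 111.8 and 112.4 in dxo1 mRNA, a log2 fold change of -2.31 ± 0.146 (SE, adjusted p of 8.85e-06 in edgeR). XRN2 had 44.1 and 47.2 CPM in GMUCT, against 62.3 and 63.0 in mRNA, a log2 fold change of -0.46 ± 0.0969 (adjusted p of 0.00365 in edgeR). Neither overlapped. XRN4 had 66.8 and 59.1 CPM in GMUCT, against 69.4 and 67.8 in mRNA, and its log2 fold change of -0.12 ± 0.113 did not pass, with an adjusted p of 0.369 in edgeR; both GMUCT libraries were nonetheless below both of mRNA.

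The cap hydrolase and its activator were the pair highest in GMUCT relative to mRNA. DCP2 had 83.0 and 76.7 CPM in GMUCT, against 29.6 and 33.0 in mRNA, a log2 fold change of 1.35 ± 0.126 (SE, adjusted p of 4.69e-05 in edgeR). DCP1 had 83.6 and 63.9 CPM in GMUCT, against 35.7 and 30.5 in mRNA, a log2 fold change of 1.16 ± 0.157 (adjusted p of 3.34e-04 in edgeR). In both genes each GMUCT library exceeded each mRNA library.

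Scaffold and partner went opposite ways. VCS had 42.4 and 50.2 CPM in GMUCT, against 134.3 and 135.6 in mRNA, a log2 fold change of -1.54 ± 0.119 (SE, adjusted p of 1.95e-05 in edgeR). DCP5 had 170.5 and 181.5 CPM in GMUCT, against 136.4 and 132.8 in mRNA, a log2 fold change of 0.39 ± 0.100 (adjusted p of 0.00970 in edgeR). With library totals in place of TMM factors, which shifts the median over all genes to -0.14, DCP5 was at 0.25 with an adjusted p of 0.0673.

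Over the 11 other settings tried, the log2 fold change ranged from -2.53 to -2.10 for XRN3, from -1.68 to -1.42 for VCS and from -0.59 to -0.41 for XRN2, and these 3 passed in all 11. DCP2 ranged from 1.21 to 1.43 and DCP1 from 0.95 to 1.34, also passing in all 11. XRN4 ranged from -0.26 to -0.04 and passed in none. One of the settings leaves out both libraries labelled dxo1 replicate 1. The spread then comes from the 2 Col-0 mRNA libraries alone, so a pass there says little about stability.

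The wider decapping list was split in the same comparison, with 7 of 18 partners higher in GMUCT and 7 lower, as were all genes, of which 64.8% were called (6585 higher and 6447 lower). PAT1H2 averaged 234.5 ± 4.45 CPM in dxo1 GMUCT and 34.4 ± 0.354 in dxo1 mRNA, the largest rise of the list, with a log2 fold change of 2.77 ± 0.102 (SE, adjusted p of 2.55e-06 in edgeR). LSM5 averaged 129.9 ± 2.23 CPM in GMUCT and 21.6 ± 1.07 in mRNA, while LSM7 averaged 38.8 ± 0.625 in GMUCT and 131.9 ± 2.93 in mRNA. VCR, like VCS, was lower, at 27.3 ± 0.477 CPM in GMUCT and 42.0 ± 3.70 in mRNA, a log2 fold change of -0.62 ± 0.108 (adjusted p of 0.00129 in edgeR).

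Of 10 genes of 3′ decay, 7 were lower in GMUCT and 2 higher, beside the same 64.8% of all genes, and their median log2 fold change was -0.75, against 0.002 over all genes. SKI8 averaged 14.2 ± 0.225 CPM in GMUCT and 45.0 ± 1.55 in mRNA, and NOT1, the scaffold of the deadenylase complex, 39.6 ± 7.64 in GMUCT and 177.7 ± 22.4 in mRNA. CCR4A, a deadenylase, averaged 48.7 ± 5.36 CPM in GMUCT and 94.9 ± 2.91 in mRNA. The 2 higher ones, named after their values were seen, were the deadenylase genes CAF1A and CAF1B. SAL1 was lower, at 44.6 ± 1.11 CPM in GMUCT and 69.8 ± 0.493 in mRNA (adjusted p of 4.45e-04 in edgeR). GMUCT of Col-0 was not analysed here, so these ratios describe dxo1 alone.

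Small RNA libraries were counted by strand and by length from 19 to 25 nt on each transcript (columns marked f and r, read here as forward and reverse), to ask whether these transcripts are themselves sources of small RNAs and whether RDR6 matters for them. The dxo1 rdr6 tables stand apart from the other 4. Each of their values is even, as if every read were counted 2 times, and 25 nt took 92.1 and 88.0% of their counts, against 10.2 and 13.6% in dxo1 and 12.2 and 9.66% in Col-0. The shallowest library, dxo1 replicate 2, held 137603 counts and the deepest, Col-0 replicate 2, 4087476, and the 7 genes held 11 counts in all in dxo1 replicate 2. Intervals and limits below cover counting error only.

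**Figure D5:**
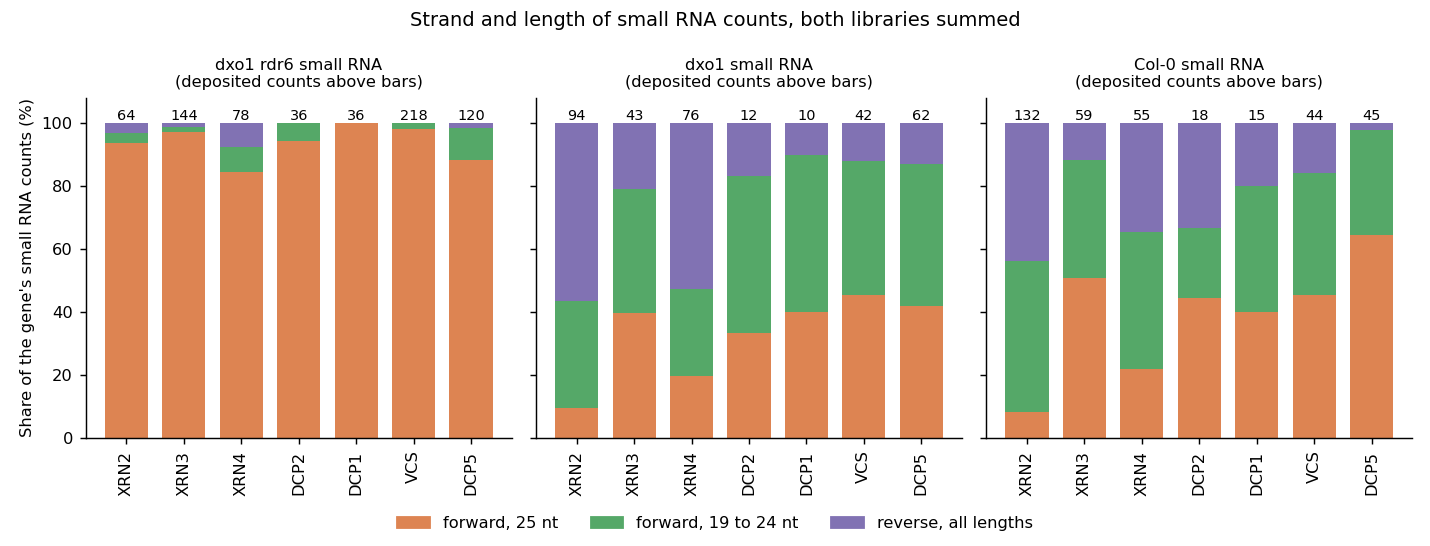
Share of each gene's small RNA counts (y axes, percent) that were forward and 25 nt (orange), forward and 19 to 24 nt (green) or reverse (purple), for the 7 genes (x axes), with both libraries of a genotype summed and the deposited counts above the bars. Orange covers 84.6 to 100% of every bar in dxo1 rdr6, while reverse counts reach 56.4% for XRN2 in dxo1.

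Counts over the 7 transcripts summed to 696 in dxo1 rdr6, 339 in dxo1 and 368 in Col-0. The forward strand took 98.3% of them in dxo1 rdr6, 65.2% in dxo1 and 72.6% in Col-0. Over all transcripts the forward share was 75.001 and 80.1% in the dxo1 rdr6 libraries, 57.7 and 59.8% in dxo1, and 58.1 and 57.1% in Col-0, so it was higher throughout the dxo1 rdr6 tables. By library, over the 7 genes, it was 98.5% (95% Wilson interval 95.6 to 99.5%) and 98.0% (94.3 to 99.3%) in dxo1 rdr6, with each read taken as 2 counts. It was 64.3% (59.0 to 69.3%) and 90.9% (62.3 to 98.4%) in dxo1, and 74.8% (65.6 to 82.2%) and 71.7% (66.0 to 76.8%) in Col-0. The dxo1 rdr6 libraries lie above those of Col-0, and the value of 90.9% rests on 11 counts.

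XRN2 had small RNA from both strands. Its reverse share was 3.13% in dxo1 rdr6, 56.4% in dxo1 and 43.9% in Col-0. Most of those reverse counts were 23 nt long, 39 of 53 in dxo1 and 44 of 58 in Col-0, and its forward counts of 24 nt were 13 in dxo1 and 38 in Col-0. By library the reverse 23 nt counts were 0 and 0 in dxo1 rdr6, 38 and 1 in dxo1, and 14 and 30 in Col-0.

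The absence of such counts in dxo1 rdr6 has to be read against depth. Only 592154 of its counts were 19 to 24 nt long, so a count of 0 allows up to 10.1 CPM within that length class for reverse 23 nt RNA of XRN2, with a limit of 3 reads (6 deposited counts) over the group. The values in the other genotypes were 11.6 CPM in dxo1 and 8.81 in Col-0. A loss relative to the Col-0 level was therefore not detectable at this depth. The reverse share of XRN2 in dxo1 rdr6 is also lowered by 25 nt counts, since 60 of its 64 counts there were forward and of that length.

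XRN4 also had reverse counts, most of them at 21 nt. Its reverse 21 nt counts were 0 and 2 in dxo1 rdr6, 26 and 0 in dxo1, and 6 and 8 in Col-0, and its reverse share was 7.69% in dxo1 rdr6, 52.6% in dxo1 and 34.5% in Col-0. The library with 26 was dxo1 replicate 1, and the 0 beside it belongs to the shallow dxo1 replicate 2. Of the 78 XRN4 counts in dxo1 rdr6, 66 were forward and 25 nt long, which lowers the reverse share there. Within 19 to 24 nt, reverse 21 nt RNA of XRN4 stood at 3.38 CPM in dxo1 rdr6, 7.71 in dxo1 and 2.80 in Col-0. The limit of 3 reads in dxo1 rdr6 was 10.1 CPM, above each of these values, so a loss was not detectable at this depth. For the other genes reverse counts made up at most 20.9% in dxo1 (XRN3) and at most 33.3% in Col-0 (DCP2, from 18 counts). The forward share of XRN2 was 43.6% in dxo1 and 56.1% in Col-0, and that of XRN4 was 47.4% and 65.5%. Over all transcripts it was 57.7 and 59.8% in the dxo1 libraries and 58.1 and 57.1% in Col-0. The reverse shares of XRN2 and XRN4 thus did not stand out in Col-0.

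Tested over all strands and lengths, dxo1 against Col-0 gave 0 calls among the 7 in edgeR, beside 5.31% of all transcripts (815 of 15358, of which 43.4% were higher, or 88.0% with library totals), with 1 of the 7 at an unadjusted p under 0.05 and 0 called by DESeq2. That one was XRN2, with 28.0 and 3.44 CPM in dxo1, against 43.4 and 41.1 in Col-0, so both dxo1 libraries were lower with TMM factors. The 3.44 CPM is 1 count, and as CPM of all counts the values were 25.7 and 7.27 in dxo1, against 26.3 and 22.8 in Col-0, with replicate 1 inside the Col-0 range. Its log2 fold change was -0.84 ± 0.377 (SE, adjusted p of 0.231 in edgeR), and the reverse strand alone gave 0.31 with an adjusted p of 0.719. The median over all transcripts was -0.31 in this fit, which includes the dxo1 rdr6 libraries. With the 2 groups alone that median was 0.04, and 64.3% of calls were higher. XRN2 then stood at -0.38, with an adjusted p of 0.414 in edgeR.

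In dxo1 rdr6, 2 of the 7 passed against each of the other genotypes, beside 36.2% of all transcripts against dxo1 (5560 of 15358) and 31.8% against Col-0 (4877 of 15358, of which 27.1% were higher, or 71.3% with library totals). XRN2 had 10.9 and 7.12 CPM in dxo1 rdr6, 28.0 and 3.44 in dxo1, and 43.4 and 41.1 in Col-0. It overlapped with dxo1 and lay wholly below Col-0. The log2 fold changes were -1.37 ± 0.397 (SE, adjusted p of 0.00858) against dxo1 and -2.21 ± 0.371 (adjusted p of 2.75e-05) against Col-0 in edgeR. Of the XRN2 counts, 60 of 64 in dxo1 rdr6 were 25 nt long, against 9 of 94 in dxo1 and 11 of 132 in Col-0. The test sums all lengths and so sets unlike length classes against each other. A fall at any given length cannot be read from it.

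Against dxo1 the XRN2 value rests on 1 library: without dxo1 replicate 1 it turned to 1.42 (adjusted p of 0.467 in edgeR). It also did not pass in DESeq2 (adjusted p of 0.380), with a replicate block (0.0817 in edgeR) or on the forward strand alone (0.122 in edgeR). With the reverse strand alone it did not pass against either genotype, with adjusted p of 0.101 against dxo1 and 0.130 against Col-0.

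VCS was the one gene of the 7 called higher in dxo1 rdr6, with 35.3 and 26.1 CPM there, 11.7 and 10.3 in dxo1, and 10.02 and 15.5 in Col-0, and no overlap with either. The 10.3 CPM in dxo1 rests on 3 counts. The log2 fold changes were 1.41 ± 0.360 (SE, adjusted p of 0.00333) against dxo1 and 1.18 ± 0.336 (adjusted p of 0.00778) against Col-0 in edgeR. Of its 218 counts in dxo1 rdr6, 214 were forward and 25 nt long, and 0 were reverse. With 19 to 24 nt alone, or with 21 and 22 nt alone, VCS had too few counts to be tested.

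The VCS value against dxo1 did not pass in DESeq2 (adjusted p of 0.178), with the 2 groups alone (0.0501 in edgeR) or without dxo1 replicate 1 (0.181 in edgeR). Against Col-0 it did not pass in DESeq2 (adjusted p of 0.181) or in edgeR without dxo1 rdr6 replicate 1 (0.0666) or without either Col-0 library (0.166 and 0.0894). Partners of the complex gave 0 calls in edgeR among the 16 tested against either genotype. Over all transcripts 36.2% were called against dxo1 and 31.8% against Col-0. At an unadjusted p under 0.05 in edgeR there were 2 partners against dxo1 and 2 against Col-0. Of 10 genes of 3′ decay, 2 were higher and 0 lower in dxo1 rdr6 against dxo1 (NOT1 and CAF1A), and 2 higher (the same NOT1 and CAF1A) and 1 lower (SKI2) against Col-0.

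For each gene, the 2 genes with the most similar profile were found over the 14 gene count libraries, by Pearson's r of log2 CPM among 15575 genes with a mean of at least 50 counts. The values are descriptions, since the libraries share genotypes, assays and scaling. XRN3 came closest to another gene, with r of 0.993 for UBA1 and 0.990 for AT3G57880, followed by VCS with 0.987 for SCAR2 and 0.985 for CSLC5. DCP2 gave 0.975 with AT1G16810 and 0.972 with AT1G55530, and DCP1 gave 0.973 with ALG12 and 0.942 with IM.

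XRN2 reached 0.946 with TRZ4 and 0.941 with AT4G37510, DCP5 0.925 with UTR5 and 0.917 with AT1G61670, and XRN4 no more than 0.879, with RLP54, and 0.858, with AT5G65400. Among the 7 themselves, the 21 pairs ranged from -0.45 for XRN3 with DCP5 to 0.88 for XRN3 with VCS, with a median of 0.31. XRN3 and VCS are the pair that fell furthest below mRNA in GMUCT. The libraries behind r include those of GMUCT and mRNA, so that fall is part of their r and no separate observation.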

How the data were processed

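Unopened flower buds of Arabidopsis were profiled in 20 libraries of 10 groups, 2 per group. The deposited files hold raw counts: reads per gene for NAD RNA, total RNA, mRNA and GMUCT, and small RNA reads per transcript by strand and length (19 to 25 nt). The submitters' processing notes name cutadapt, STAR 2.4.2a, HTSeq and the TAIR10 build. Their settings are not given in the sources used here. The 5 entries for unassigned reads were left out of library sizes and tests. They took 91.8 to 96.1% of reads in NAD RNA, 90.8 to 91.2% in total RNA, 20.3 to 21.8% in mRNA and 18.2 to 28.3% in GMUCT. Small RNA counts were summed over strands and lengths and used as deposited.

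Genes passing filterByExpr (minimum count 10) were tested with edgeR 4.0.16 (TMM factors, quasi-likelihood, Benjamini-Hochberg over all genes, threshold 0.05) in R 4.3.3; the code was tested on simulated data. NAD RNA and total RNA were fitted together, mRNA alone, GMUCT with the mRNA of both genotypes, and the 6 small RNA libraries together. SE is the absolute log2 fold change divided by the root of F, an approximation. CPM comes from the libraries of each fit. DESeq2 1.42.0, other scalings, no filter, left-out libraries and, for small RNA, length and strand classes were alternatives.

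Beside the 7 genes and DXO1, the text names VCR, up to 3 called genes of lowest p per list and comparison, and the 2 genes most alike to each of the 7. LSM2, LSM7, PAT1, PAT1H1, SAL1, A9 and ATA7 in mRNA, and CAF1A and CAF1B in GMUCT, were named outside this rule, after their values were seen. The 7 genes and the lists were chosen with earlier results of these data known. Same-numbered libraries were not treated as pairs. Replicates differed beyond sampling noise in every group (chi-square per degree of freedom 2.26 to 33.7, highest in Col-0 NAD RNA). With 2 libraries per group, an exact permutation test of a single gene cannot pass the threshold. No sequence or coordinate is given.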

Additional observations from a re-analysis of the deposited data

How the results depend on the processing

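Across alternatives, the number of the 7 genes called stayed within 1.5 times its reported value in 84 of 128 cases, and single log2 fold changes kept direction and side of the threshold in 196 of 264. A count of 0 that stayed 0 is among the cases kept, as for dxo1 over Col-0 in total RNA, so the tally overstates how stable the calls were. Outside GMUCT, the comparisons that made calls often changed their count, as given below. The 6 calls of GMUCT over mRNA were the steadiest, with DCP5 alone lost, under library totals. The cause of the changes below was not tested. Reverse strand only, halved dxo1 rdr6 counts and 19 to 24 nt were chosen after seeing the data. Counts are given as all genes and then, where they changed, genes of the 7.

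For dxo1 NAD RNA over dxo1 total RNA, 1 of the 7 passed with library totals, 2 in DESeq2, 2 with mRNA as the denominator (DCP5 reversed to -0.26), and 0 genes and 0 of the 7 without the dxo1 replicate 1 libraries (3856 genes at an unadjusted p under 0.05 in edgeR). Single libraries left out gave 2229 to 3677 genes and 0 to 1 of the 7. For Col-0, library totals gave 2574 and 0, DESeq2 0 of the 7, no dxo1 replicate 1 libraries 1024 and 0, the 2 groups alone 1408 and 0, the replicate block 1 (XRN3 lost) and mRNA as the denominator 1. Leaving out 1 library gave 721 to 7278 genes and 0 to 3 of the 7. For the difference between genotypes, DESeq2 called 13 genes and no filter 287, and leaving out 1 library gave 0 to 1706 and 0 to 1.

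For dxo1 over Col-0 in NAD RNA, library totals, no dxo1 replicate 1 libraries and the 2 groups alone each gave 0 genes in edgeR (2766, 1309 and 1611 at an unadjusted p under 0.05), DESeq2 449, no filter 1524 with 1 of the 7 (VCS) and the replicate block 79. Leaving out 1 library gave 0 to 2621 and 0 to 2. In total RNA, library totals and no dxo1 replicate 1 libraries gave 0 in edgeR (1567 and 1288 at an unadjusted p under 0.05), DESeq2 285, no filter 1081, the replicate block 19 and the 2 groups alone 2357 with 1 (DCP5). Leaving out 1 library gave 0 to 1. In mRNA, 1 of the 7 (DCP5) passed without dxo1 replicate 1, and leaving out 1 library gave 670 to 8890 and 0 to 1.

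For small RNA of dxo1 over Col-0, library totals gave 1499, DESeq2 313, the replicate block 382, the 2 groups alone 1819 and halved counts 1822. Without dxo1 replicate 1, 1 of the 7 passed (XRN2, -3.62), and on the reverse strand XRN2 reversed to 0.31. With 1 library left out there were 20 to 1135 and 0 to 1. For dxo1 rdr6 over dxo1, DESeq2 gave 2723 and 0, no dxo1 replicate 1 1814 and 1 with XRN2 reversed to 1.42, the replicate block 1 (XRN2 lost), the 2 groups alone 3496 and 1, the sense strand 1, the reverse strand 1179 and 0, 21 and 22 nt 534 and 0, and 19 to 24 nt 1739 and 0. Leaving out 1 library gave 1814 to 7293 and 1 to 4, with XRN2 between -1.64 and 1.42. For dxo1 rdr6 over Col-0, library totals gave 9704 and 4, DESeq2 3010 and 1, the reverse strand 1648 and 0, 21 and 22 nt 1190 and 0, and 19 to 24 nt 2462 and 1. In these classes only 1 (reverse strand), 0 (21 and 22 nt) and 2 (19 to 24 nt) of the 7 had enough counts to be tested, so their 0 calls are no lost calls for the rest. Leaving out 1 library gave 2810 to 7189 and 1 to 2.

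With library totals the share of higher calls was 88.9% in place of 50.3% for dxo1 NAD RNA over total RNA, 81.8% in place of 55.7% for Col-0, 88.0% in place of 43.4% for small RNA of dxo1 over Col-0 and 71.3% in place of 27.1% for dxo1 rdr6 over Col-0. The replicate numbers were not treated as pairs: same-numbered libraries correlated at 0.594 in dxo1 mRNA and GMUCT and between -0.379 and 0.219 in the other group pairs. By Spearman's rho, both genes nearest to XRN4 and ALG12 for DCP1 stayed among the nearest 2. Depth limits small RNA most: dxo1 replicate 2 held 137603 counts, so that 3 counts make 21.8 CPM, and the 7 genes held 11 counts there. In NAD RNA, DCP2 rests on 5 counts in Col-0 replicate 1.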
